A study of Mus musculus with 6 samples.

Results

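The miRNAs described here come from 6 hairpins downstream of Meg3 on mouse chromosome 12, namely miR-673, miR-337, miR-540, miR-665, miR-341 and miR-370. Every listed arm of a hairpin with any of these numbers was taken. This gave 12 entries of the 1055 mature miRNAs in the count tables. Of these, 9 had at least 100 reads in every library and belonged to the 399 miRNAs tested for a genotype difference. The remaining 3 were miR-337-3p, miR-341* and miR-665*.

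Small RNAs were sequenced from whole brains of 3 wild-type and 3 Adar2-/- mice, 1 lane per brain. All were female 129SV siblings aged 5.5 months from heterozygous crosses. Both genotypes carried the Gria2 R/R allele, which encodes the edited form of the glutamate receptor subunit that is the essential ADAR2 target, so the wild-type animals differ from ordinary wild-type mice at that locus. The comparison asked which miRNAs change in abundance when ADAR2 is missing.

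Meg3 is a maternally expressed long non-coding RNA of the imprinted Dlk1-Dio3 region, where Dlk1, Rtl1 and Dio3 are expressed from the paternal chromosome. Downstream of Meg3 the maternal chromosome also gives rise to Rian, Mirg and one of the largest miRNA groups of the mouse genome, which is prominent in brain. Each miRNA hairpin is cut by Drosha and Dicer into a duplex of a 5′ arm (5p) and a 3′ arm (3p), either of which can be loaded into Argonaute, and bases 2 to 8 of the loaded arm, the seed, choose the targets. ADAR2 converts adenosines in double-stranded RNA to inosines, which are read as G, and miRNA hairpins are among its substrates. The miR-540 hairpin was examined by the study as an edited one.

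The hairpins lay on the plus strand of chromosome 12 of build NCBIM37 (mm9). Mir673, at chr12:110810200-110810290, began 264 bp after the annotated end of Meg3. Mir337 (chr12:110824000-110824096), Mir540 (chr12:110824281-110824364) and Mir665 (chr12:110824524-110824617) stood together between Meg3 and Rtl1. None of these 4 overlapped another annotated gene. Mir341 (chr12:110849710-110849805) and Mir370 (chr12:110856468-110856546) lay in introns of Rian, so these members were intronic and the other 4 hairpins intergenic by this annotation.

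**Figure D1:**
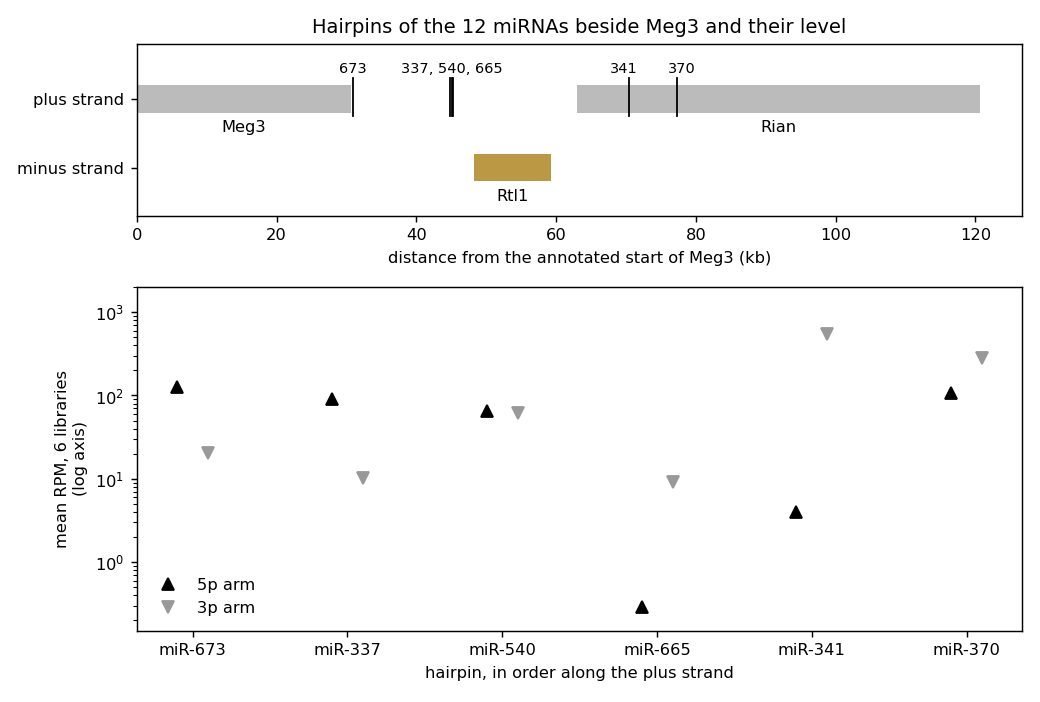
Upper panel: the 6 hairpins (black lines) and the genes Meg3, Rian and Rtl1 against the distance from the annotated start of Meg3 in kb, by strand. Lower panel: mean level of each arm over the 6 libraries in mapped miRNA reads scaled to the library total (RPM, log axis), with the 5p arm as upward and the 3p arm as downward triangles. The levels run from 0.289 RPM for miR-665* to 543.5 RPM for miR-341, and the arms of miR-540 lie next to each other at 64.3 and 62.1 RPM.

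All 12 entries matched a mature mouse miRNA of RefSeq (GRCm38.p6 table). The tables give no arm for miR-341, miR-370 and miR-665. They were taken as 3p arms and their starred partners as 5p arms, after their later names. Both arms of miR-540 are shown first because the comparison of arms turns on them. They lay at chr12:110824295-110824317 (5p) and chr12:110824332-110824351 (3p), and capitals mark the seed.
miR-540-5p: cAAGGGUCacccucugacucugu
miR-540-3p: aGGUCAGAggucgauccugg

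The RefSeq hairpin of 67 nt shows how the arms face each other, here with both mature arms in capitals.
Mir540: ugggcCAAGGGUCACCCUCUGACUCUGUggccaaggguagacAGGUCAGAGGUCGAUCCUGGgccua

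The minimum free energy fold of this hairpin, at -40.9 kcal/mol, paired 19 of the 23 bases of the 5p arm and 17 of the 20 bases of the 3p arm. miR-540-5p holds adenosines at positions 2, 3, 9 and 17, counted from its 5′ end. Positions 2 and 3 fall in the seed, and position 2 was unpaired in the fold while position 3 faced a U. miR-540-3p holds adenosines at positions 1, 6, 8 and 14, all of them facing a U, and positions 6 and 8 fall in the seed. A deaminated adenosine at 2 or 3 of the 5p arm or at 6 or 8 of the 3p arm would therefore alter a seed. Reads were mapped with about 2 mismatches allowed, so edited and unedited forms were counted under the same name. Levels below are sums of both forms, and editing levels were not analysed here.

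The neighbours below are shown because their levels differed most between libraries or genotypes, or because of their sequence. They lay at chr12:110824028-110824049 (miR-337-5p), chr12:110824060-110824081 (miR-337-3p), chr12:110824578-110824597 (miR-665), chr12:110810254-110810276 (miR-673-3p) and chr12:110849766-110849786 (miR-341). Capitals mark the seed.
miR-337-5p: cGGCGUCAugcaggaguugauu
miR-337-3p: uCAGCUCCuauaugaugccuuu
miR-665: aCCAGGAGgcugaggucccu
miR-673-3p: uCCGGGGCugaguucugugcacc
miR-341: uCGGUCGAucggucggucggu

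No seed was shared between any of the 12 members, so these neighbours do not form a seed family. Outside the group, the seed of miR-540-3p was that of miR-6915-5p, the seed of miR-370* that of miR-1193-3p, and the seed of miR-673-5p that of miR-6985-3p. The longest run of bases that a member shared with another RefSeq mature miRNA ranged from 8 to 11. The sequence of miR-341 holds CGGU 4 times and that of its partner arm miR-341* holds it 2 times. This string was present in 3.87% of the 1679 RefSeq mature miRNAs searched on the RNA strand. The triplet UAG, the adenosine context often named for ADAR editing, was in 0 of the 12 members and in 23.8% of these 1679 miRNAs. Only mature arms were searched, and the Mir540 hairpin shown above holds UAG between its arms.

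The libraries held between 12449633 and 23935544 mapped miRNA reads, with wild-type replicate 1 the shallowest. The members took 0.114% to 0.144% of them. Brain miRNAs (miR-9, miR-124, miR-128 and miR-138, 10 entries) summed to between 137089 and 201649 RPM in every library, whereas the 2 entries of the liver miRNA miR-122 summed to 3.95 to 7.23 RPM. Other lists of non-neural cells were higher than miR-122. The vascular list (6 entries) summed to 50324 to 80301 RPM, the muscle list (11 entries) to 2257 to 3394 RPM and the blood list (5 entries) to 446 to 1600 RPM. The neuroendocrine list (miR-375 and miR-7, 7 entries, 1 of them at 0 in all libraries) was highest in wild-type replicate 1, with 7527 RPM against 1302 to 4748 RPM in the other libraries. Entries of retina and olfactory epithelium (6 entries) stood at 19159 RPM in Adar2-/- replicate 3 and at 89665 to 186904 RPM elsewhere. The part of these lists in the results was not tested, and Adar2 mRNA was not analysed here, so the genotype labels were not checked.

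Summed over the 12 members, the genotypes differed by less than the spread between brains. The wild-type libraries held 1234, 1332 and 1443 RPM and the Adar2-/- libraries 1137, 1337 and 1416 RPM. The means were 1337 ± 104 RPM in wild type and 1297 ± 143.96 RPM in Adar2-/- (SD, n = 3), with overlapping libraries. The most abundant members, miR-341 (543.5 RPM over all libraries) and miR-370 (278 RPM), weigh most in this sum, and changes of rarer members hardly show in it. In whole brain, fewer cells that make a miRNA and less of it per cell cannot be told apart.

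By mean level over the 6 libraries miR-341 came first at 543.5 RPM and miR-370 second at 278 RPM. RPM counts reads and is not divided by length, since a read spans a whole mature miRNA. Neither miR-341 nor miR-370 overlapped its next neighbour in this order in any library. miR-673-5p (127.3 RPM), miR-370* (107 RPM), miR-337-5p (90.7 RPM), miR-540-5p (64.3 RPM) and miR-540-3p (62.1 RPM) followed, each overlapping the next. miR-673-3p (20.4 RPM), miR-337-3p (10.1 RPM), miR-665 (9.28 RPM) and miR-341* (3.99 RPM) again overlapped stepwise. miR-665*, with 3 to 8 reads per library, lay below all others.

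**Figure D2:**
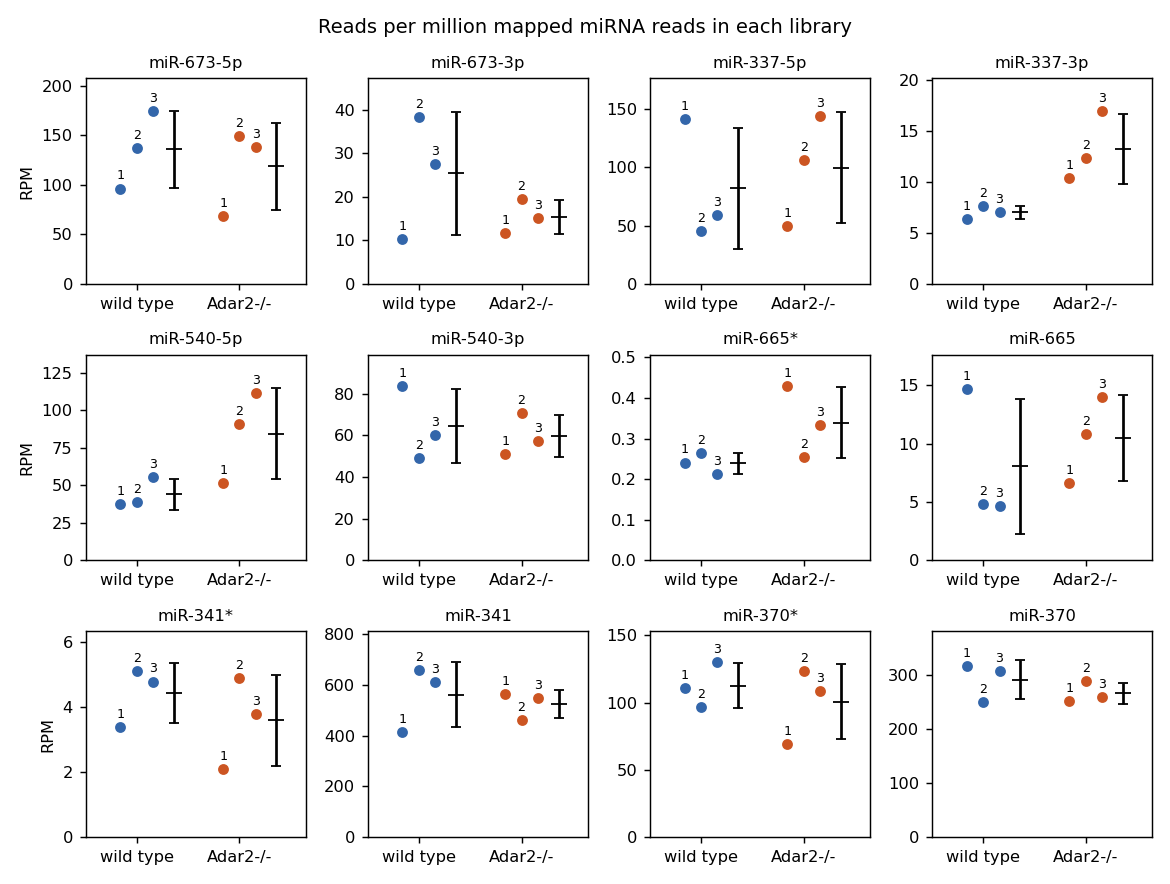
Level of each of the 12 members in each library in RPM on a linear axis from 0. Points are single libraries with their replicate number and the bars give mean ± SD of 3 libraries. For miR-337-3p the 3 Adar2-/- libraries (10.4 to 17.0 RPM) lie above the 3 wild-type libraries (6.35 to 7.64 RPM), and for miR-540-5p all but replicate 1 of Adar2-/- do.

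No member passed the test for a genotype difference. In edgeR's quasi-likelihood test with Benjamini-Hochberg adjustment, 0 of the 9 tested members had an adjusted p under 0.05, as had 0% of all 399 miRNAs, and the members' adjusted p values were 0.988 to 0.989. Before adjustment, 1 of the 9 members, miR-540-5p, which was higher in Adar2-/-, had a p under 0.05, beside 13 of the 399 miRNAs (3.26%, and 2.26% counting higher ones alone). In DESeq2, 0 of the 9 members and 0.251% of the 399 miRNAs passed after adjustment, with 1 member and 10.0% below 0.05 before it. The log2 fold changes of the 9 members (Adar2-/- over wild type) were positive for 3 and negative for 6, with a median of -0.11 beside 0.0023 for all 399.

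The 5p arm of miR-540 was the tested member with the largest log2 fold change. It stood at 37.7, 38.7 and 55.9 RPM in the wild-type libraries and at 51.4, 90.7 and 112 RPM in the Adar2-/- libraries, from 469 to 2671 reads. Adar2-/- replicate 1 lay below wild-type replicate 3, so the groups overlapped, although each Adar2-/- library was above the wild-type library of its number. The means were 44.1 ± 10.2 RPM and 84.6 ± 30.5 RPM (SD, n = 3), a ratio of 1.92. The log2 fold change was 0.94 with an SE of 0.377 and a 95% interval of 0.10 to 1.78. Its p in edgeR's quasi-likelihood test was 0.0315 before and 0.988 after adjustment, and the two-sided exact permutation test of RPM gave p = 0.2, where 3 against 3 libraries cannot go below 0.1.

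The 3p arm of the same hairpin was close to even between the genotypes. It stood at 83.9, 49.3 and 60.3 RPM in wild type and at 51.0, 70.9 and 57.1 RPM in Adar2-/-. The highest library and the lowest were both wild type, so the Adar2-/- range lay inside the wild-type range. The means were 64.5 ± 17.7 and 59.7 ± 10.2 RPM (SD, n = 3), and the log2 fold change was -0.11 with an SE of 0.335. Its 95% interval, -0.86 to 0.63, leaves room for a change in either direction.

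Since both arms leave the same hairpin, their ratio within a library does not depend on library size. Of the reads on miR-540, the 5p arm took 31.0% (95% Wilson interval 28.7 to 33.4), 44.0% (41.8 to 46.1) and 48.1% (46.2 to 50.0) in the wild-type libraries. In the Adar2-/- libraries it took 50.2% (48.0 to 52.4), 56.1% (54.6 to 57.7) and 66.1% (64.7 to 67.6). These intervals cover counting error only, as PCR copies were not told apart. The share of the 5p arm was thus higher in every Adar2-/- library than in any wild-type library, with a narrow gap between the nearest libraries of 48.1% and 50.2%.

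The log2 ratio of 5p to 3p reads was -1.15, -0.35 and -0.11 in wild type and 0.01, 0.36 and 0.97 in Adar2-/-. Its means were -0.54 ± 0.547 and 0.44 ± 0.483 (SD, n = 3), a difference of 0.98, and within replicate numbers 1, 2 and 3 the differences were 1.17, 0.71 and 1.08. The two-sided exact permutation test gave p = 0.1, the smallest value this design allows, and 6 hairpins were compared. The difference therefore did not pass the threshold. Of 102 hairpins with at least 100 reads on both arms in every library, 9.80% had arm ratios that did not overlap between the genotypes, and miR-540 ranked 7 of the 102 in the size of its difference, beside a median absolute difference of 0.40 and a largest of 1.57.

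The arm ratios of the other 5 hairpins overlapped between the genotypes. The 5p arm dominated miR-337 (82.6% to 95.7% of its reads) and miR-673 (78.1% to 90.4%). The 3p arm dominated miR-370, where the 5p arm took 21.7% to 30.1%, miR-665 (1.61% to 6.06%) and miR-341 (0.369% to 1.05%). The differences of the mean log2 ratio, Adar2-/- minus wild type, were -0.56 for miR-337, -0.29 for miR-341, -0.06 for miR-370, -0.12 for miR-665 and 0.31 for miR-673, with exact permutation p values of 0.6 to 1.0. The 5p share of miR-540, from 31.0% to 66.1%, lay between those of the 5p-dominated and the 3p-dominated hairpins. The miR-337 value depended on single libraries and was -0.96 without wild-type replicate 2 and -0.012 without wild-type replicate 1.

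**Figure D3:**
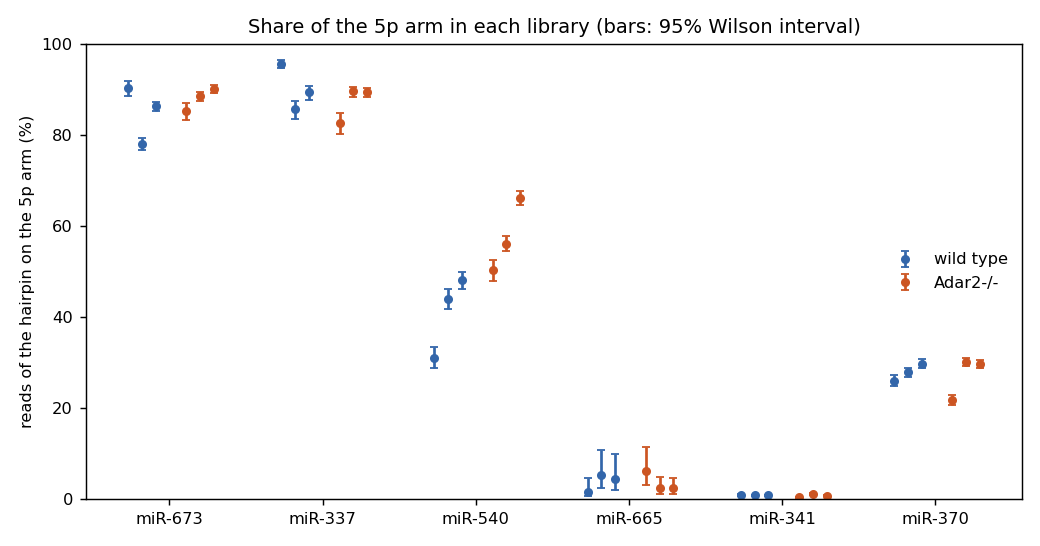
Percent of each hairpin's reads on its 5p arm in the 6 libraries, hairpins in genomic order, wild type in blue and Adar2-/- in orange with replicates 1 to 3 from left to right. Bars are 95% Wilson intervals and cover counting error only. The 3 Adar2-/- values of miR-540 (50.2% to 66.1%) lie above its 3 wild-type values (31.0% to 48.1%), and the other hairpins overlap.

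miR-337 lies just upstream of miR-540, and its rarer arm had the clearest separation of the groups. This arm, miR-337-3p, stood at 6.35, 7.64 and 7.03 RPM in wild type and at 10.4, 12.3 and 17.0 RPM in Adar2-/-, from 79 to 406 reads. All 3 Adar2-/- libraries were above all 3 wild-type libraries. Means were 7.005 ± 0.647 and 13.2 ± 3.39 RPM (SD, n = 3), a ratio of 1.89. With 79 reads in wild-type replicate 1 it fell short of the 100-read minimum. At a minimum of 10 reads in every library, which 608 miRNAs met, its log2 fold change was 0.91 with an SE of 0.356 and a 95% interval of 0.13 to 1.70. The p in edgeR's quasi-likelihood test was 0.0257 before and 0.982 after adjustment, and the exact permutation p of RPM was 0.1, the smallest possible. Of the 11 members at this minimum, miR-337-3p was the 1 whose groups did not overlap, beside 5.59% of the 608 miRNAs (2.80% with Adar2-/- higher). Of the 9 members with at least 100 reads, 0 had separate groups, beside 5.76% of the 399. Of the 11, 2 had an unadjusted p under 0.05 in edgeR's test, beside 3.29%.

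The abundant arm, miR-337-5p, had a spread among the wild-type brains (SD 51.6 RPM) that was larger than the difference of the means, 81.8 and 99.5 RPM. Its levels were 141, 45.6 and 59.0 RPM in wild type and 49.2, 106 and 143.5 RPM in Adar2-/-. Wild-type replicate 1 and Adar2-/- replicates 2 and 3 were high and the other 3 libraries low. The log2 fold change was 0.28 with an SE of 0.509 and a 95% interval of -0.85 to 1.42 (edgeR's quasi-likelihood test, adjusted p = 0.989).

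miR-665, the next hairpin downstream of miR-540, showed the same split of libraries at a lower level. Its levels were 14.7, 4.83 and 4.64 RPM in wild type and 6.65, 10.9 and 14.0 RPM in Adar2-/-, from 109 to 335 reads. The log2 fold change was 0.40 with an SE of 0.496 and a 95% interval of -0.71 to 1.501 (edgeR's quasi-likelihood test, adjusted p = 0.988). The partner arm, miR-665*, had 3, 6 and 5 reads in wild type and 8, 6 and 8 reads in Adar2-/-, and a difference was not detectable at this depth.

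The 3 libraries that were high in miR-337-5p and miR-665 were also the highest in the summed neuroendocrine list, though not in each of its entries. That list summed to 7527, 1302 and 1934 RPM in wild type and to 1573, 3235 and 4748 RPM in Adar2-/-. Within it, miR-375, a miRNA of pituitary and pancreatic endocrine cells, did not show this split. It stood at 3294, 113 and 42.9 RPM in wild type and at 71.7, 74.9 and 55.4 RPM in Adar2-/-. Adar2-/- replicates 2 and 3 thus lay below wild-type replicate 2 in miR-375. miR-7a, which is abundant in pituitary and hypothalamus, stood at 2976, 898 and 1423 RPM in wild type and at 1120, 2390 and 3585 RPM in Adar2-/-. The part of this list in the members' levels was not tested. Both members were lower in Adar2-/- in replicate number 1 and higher in numbers 2 and 3, as were 35.3% of the 399 tested miRNAs.

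**Figure D4:**
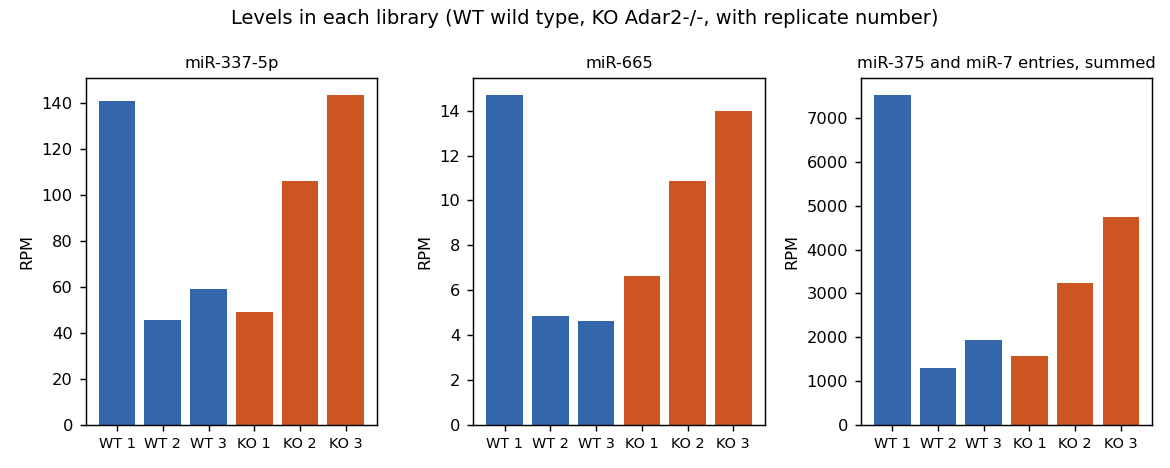
Levels in RPM of miR-337-5p, miR-665 and the summed miR-375 and miR-7 entries in each of the 6 libraries, as bars from 0, wild type (WT) in blue and Adar2-/- (KO) in orange with the replicate number. Wild-type replicate 1 and Adar2-/- replicates 2 and 3 are the highest libraries in all 3 panels. miR-375 alone, not drawn, is high only in wild-type replicate 1.

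Without the libraries of replicate number 1, that is with 2 brains per genotype, miR-665 was called, with a log2 fold change of 1.39 and an adjusted p of 0.0476 in edgeR's quasi-likelihood test. It was 1 of 18 called miRNAs, all higher in Adar2-/- and 4.51% of the 399 tested. Before adjustment 4 of the 9 members had a p under 0.05, beside 21.8% of the 399. In this fit miR-337-5p stood at 1.25 (adjusted p = 0.0510), miR-540-5p at 1.10 (adjusted p = 0.0735) and miR-673-3p at -0.93 (adjusted p = 0.124). The median of all 399 moved to 0.17, and these values are not corrected for that shift. miR-540-3p stood at 0.22 and miR-370* at 0.04, both on the other side of 0 from the fit with all libraries.

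miR-673, the hairpin nearest to Meg3, gave on its 3p arm the lowest ratio of means among the members, 0.608. miR-673-3p stood at 10.3, 38.4 and 27.6 RPM in wild type and at 11.8, 19.5 and 15.1 RPM in Adar2-/-. Wild-type replicates 2 and 3 were above every other library, and wild-type replicate 1 was below all of them. The log2 fold change was -0.72 with an SE of 0.465 and a 95% interval of -1.75 to 0.32 (edgeR's quasi-likelihood test, adjusted p = 0.988). miR-673-5p, at 96.4, 137 and 175 RPM in wild type and 68.3, 150 and 137.9 RPM in Adar2-/-, had a log2 fold change of -0.20 with an SE of 0.384 and overlapping groups.

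The hairpins inside Rian had small genotype differences relative to their errors. miR-370, whose 3p arm was the steadiest of the 12 with a highest library 1.26 times its lowest, stood at 315, 250 and 307 RPM in wild type and at 250, 287 and 258 RPM in Adar2-/-. miR-370* stood at 111, 96.5 and 130 RPM in wild type and at 69.5, 123.8 and 108 RPM in Adar2-/-. Their log2 fold changes were -0.13 with an SE of 0.297 and -0.16 with an SE of 0.330, so neither arm differed beyond the spread between brains. miR-341, the most abundant member, stood at 415, 659 and 612 RPM in wild type and at 565, 461 and 549 RPM in Adar2-/-. Its log2 fold change was -0.10 with an SE of 0.321. miR-341* stood at 3.37, 5.09 and 4.77 RPM in wild type and at 2.09, 4.88 and 3.76 RPM in Adar2-/-, from 39 to 116 reads, with a log2 fold change of -0.30 and an SE of 0.399 at the minimum of 10 reads. The Adar2-/- library of each number was the lower one, but the groups overlapped.

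**Figure D5:**
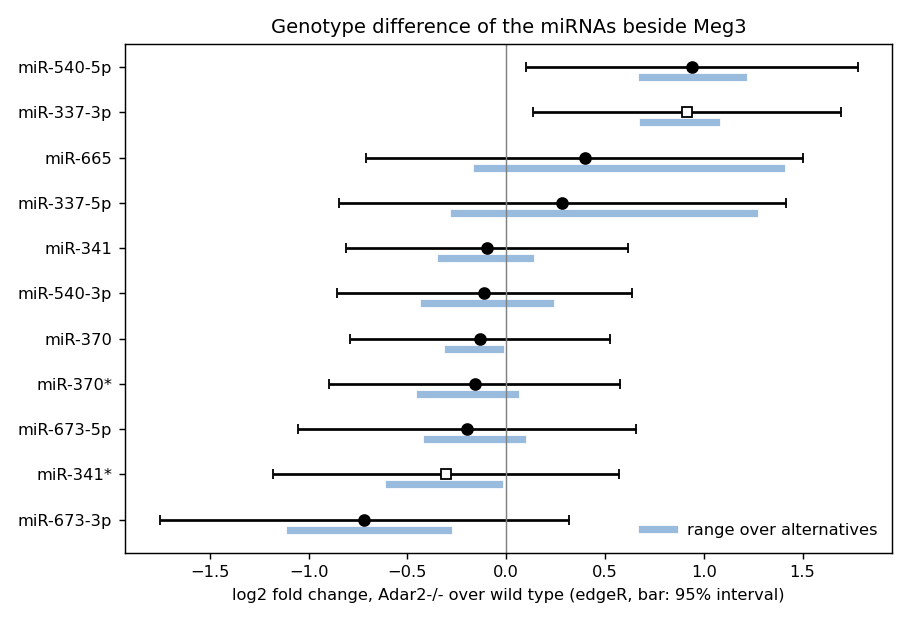
Log2 fold change of RPM, Adar2-/- over wild type, for the 11 members with at least 10 reads in every library (points, edgeR) with 95% intervals as black bars. Filled points are from the test of 399 miRNAs, open squares from the test at a minimum of 10 reads, and the blue bars span the values under the alternative settings. The intervals of miR-540-5p (0.10 to 1.78) and miR-337-3p (0.13 to 1.70) lie above 0 before adjustment for multiple testing and the other intervals include 0.

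A common direction in all 3 replicate numbers was seen for 3 of the 12 members when RPM came from total reads. miR-337-3p was higher with ratios of 1.63, 1.62 and 2.41, miR-540-5p was higher with ratios of 1.37, 2.35 and 2.00, and miR-341* was lower with ratios of 0.620, 0.958 and 0.788. Among the 9 members with at least 100 reads, 1 was higher in all 3, beside 9.02% of the 399 miRNAs. Of these 9, 0 were lower in all 3, beside 7.02%. With TMM factors or with totals that omit the 5 most abundant miRNAs, miR-673-5p was lower in all 3, making 4 of the 12. The share of all miRNAs under these other scalings was not computed, so this count has no background. At the 10-read minimum the 3 named members were 3 of 11, beside 18.4% of the 608 miRNAs, of which 10.2% were higher and 8.22% lower.

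Over the 6 libraries the miRNA outside the group with the profile most like that of miR-540-5p was miR-467e, with a mean absolute difference of 0.107 between the centred log2 RPM values. It stood at 9.56, 13.0 and 15.0 RPM in wild type and at 14.4, 26.5 and 29.1 RPM in Adar2-/-. miR-376b, of the Mirg list of the same imprinted region described below, followed at 0.169. miR-466b-3p, 1 of 3 entries of its family with identical reads in every library, was next at 0.192. The median over the 398 miRNAs compared was 0.507, and miR-540-3p, the opposite arm, was close to it at 0.491. miR-540-3p itself was most like miR-29b-2* (0.076), miR-93 (0.086) and miR-124* (0.086), beside a median of 0.344. By this measure the arms of miR-540 thus shared no more of their profile than miR-540-5p shared with a typical miRNA. Seen from miR-540-3p, the same distance of 0.491 was above the median of 0.344, so its partner was less alike than a typical miRNA.

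The remaining miRNAs of the imprinted region were counted for comparison. They were listed by miRNA number, and their positions were not checked against the annotation. Of 17 further entries beside Meg3, antisense to Rtl1 and in Rian, 11 were tested, and 3 had a positive and 8 a negative log2 fold change with a median of -0.12. Of 73 entries of the Mirg list, 48 were tested, with 24 positive, 24 negative and a median of 0.0028. None of the 59 was called by edgeR's quasi-likelihood test with all libraries, and 1, in the Mirg list, had an unadjusted p under 0.05. DESeq2 called none of them either. It gave 6 unadjusted p values under 0.05, all in the Mirg list, close to the 10.0% of all 399 miRNAs. Without replicate number 1, miR-410 and miR-495 of the Mirg list were among the 18 called. The summed level of the Mirg list was 21983 to 27241 RPM in wild type and 18846 to 21618 RPM in Adar2-/-, and that of the Rtl1 and Rian list 41719 to 101652 RPM and 61292 to 74642 RPM.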

How the data were processed

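Whole-brain small RNA of 19-25 nucleotides was sequenced with 1 lane per brain. Per the methods, the authors clipped adapters with Cutadapt and mapped reads with NextGenMap at 90% identity to miRBase release 16, and the submitters' processing notes name mm9. The authors deposited raw read counts per mature miRNA, 1 column per library, and 12 blank lines were dropped. Depth was 12449633 to 23935544 reads. Wilson intervals cover counting error only, and edgeR intervals also the spread between brains. RPM are reads per 1000000 mapped miRNA reads.

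Genotypes came from the sample titles. edgeR 4.0.16 (R 4.3.3, glmQLFit and glmQLFTest) was fitted to the 399 miRNAs that reached 100 reads in each library, taking total reads as library size. SE is the log2 fold change over the square root of F. Arm ratios used a pseudocount of 0.5 reads and exact permutation tests (scipy 1.17.1). The settings changed were the scaling (TMM, or totals that omit the top 5 miRNAs), the tool (DESeq2 1.42.0), a minimum of 10 reads, no filter, a replicate block and leaving out libraries. The members under 100 but over 10 reads (miR-337-3p and miR-341*) were fitted at 10 reads under added alternatives, chosen after seeing the data. All miRNAs of the 6 numbers are named. Likeness is the mean absolute difference of centred log2 RPM. Members and lists were chosen with earlier results of these data known. Folding used ViennaRNA 2.7.2. Positions are matches of RefSeq sequences to NCBIM37 and its GENCODE M1 annotation.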

Additional observations from a re-analysis of the deposited data

How the results depend on the processing

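No member was called with all libraries under any scaling, filter, block or tool. Leaving out libraries gave 0 to 1 called members (miR-665 without replicate number 1) and 0 to 4 with an unadjusted p under 0.05, the 4 without replicate number 1, where 21.8% of all 399 miRNAs had one. That count was 1 with all libraries and 2 both at a minimum of 10 reads and without a filter. miR-540-5p ranged over log2 fold changes of 0.69 to 1.20 in 16 alternatives (adjusted p 0.0735 to 0.998), and miR-337-3p over 0.69 to 1.06 in 13 (adjusted p 0.120 to 0.999). Leaving out libraries gave -0.26 to 1.25 for miR-337-5p, -0.15 to 1.39 for miR-665, -0.33 to 0.12 for miR-341, -0.44 to 0.047 for miR-370*, -0.41 to 0.22 for miR-540-3p and -0.40 to 0.080 for miR-673-5p, so these 6 turned direction, and the cause was not tested. miR-370 (-0.29 to -0.030), miR-673-3p (-1.09 to -0.30) and miR-341* (-0.59 to -0.038) kept theirs but moved by over 1.5 times. Both other scalings gave 4 members with a common direction in all replicate numbers, adding miR-673-5p. The share of all miRNAs under them was not computed. The arm ratio difference of miR-540 ranged from 0.67 to 1.20 without single libraries and that of miR-337 from -0.96 to -0.012. Those of miR-341 (-0.64 to 0.11), miR-370 (-0.17 to 0.14), miR-665 (-0.62 to 0.19) and miR-673 (-0.056 to 0.64) turned direction.

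Same-numbered libraries did not deviate together (correlations of 8.4e-05, -0.077 and -0.013 over miRNAs). Their counts were deposited together by number, and whether they shared a run or batch was not tested. With a replicate block no member was called and miR-540-5p stood at 0.89. The exact sign-flip test of the miR-540 arm difference gave 0.98 with p = 0.25, the smallest it allows. With 3 libraries per genotype no exact permutation p could go below 0.1, and members with few reads, such as miR-665*, carry large counting error.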
